A study of Mus musculus with 10 samples.

Results

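The 10 genes described here are members of the Notch pathway: the receptors Notch1, Notch2 and Notch4, the glycosyltransferase Lfng, the ligands Jag1, Jag2, Dll1 and Dll4, and the target genes Hes1 and Hey1. They were chosen by name, and where several probes measured a gene, its brightest by mean signal on the 10 arrays was taken. They are 10 of the 19096 genes with a probe that could be paired with a symbol. RNA was hybridised to single-colour Agilent arrays, 1 array per sample, from 5 whole lungs of wild-type mice (WT, Lkb1f/f) and from 5 lung tumours of CCSPiCreLkb1f/f mice, labelled squamous cell carcinoma (SCC). Both groups were of strain B6.129, aged 13 months and not treated, and both carried the floxed Lkb1 allele, so that they differed in the Cre transgene and in the tissue taken. Cre was driven by the promoter of Club Cell Secretory Protein, which directs deletion of the tumour suppressor kinase Lkb1 to airway epithelial cells, while the RNA came from all cells of the lung or tumour. The comparison asked which transcripts differ between normal lung and SCC. The labels do not say that the 5 samples of a group came from separate mice, and the p-values measure only the spread between these samples.

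Notch receptors are membrane proteins that are activated by Jagged and Delta-like ligands on a neighbouring cell. Cleavage by ADAM proteases and then by gamma-secretase frees the intracellular domain, which binds the DNA-bound factor RBPJ together with a Mastermind co-activator and switches on target genes of the Hes and Hey families, themselves transcriptional repressors. Fringe enzymes such as Lfng add a sugar to the receptor and so change which ligands activate it. In the lung the pathway is known for the choice between secretory and ciliated cells in the airway and for the growth of blood vessels, where Notch4, Dll4 and Hey1 are typical of endothelial cells.

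SCC replicate 5 stood apart in signal, with 90.2% of probes well above background against 71.0% to 74.3% on the other 9 arrays, and SCC replicate 2 stood apart in its marker levels. All 9 tested squamous and basal markers rose, and the median difference was 7.44 log2 units. Their mean level was 5.53 to 6.22 on the WT arrays, 10.88 on SCC replicate 2 and 14.20 to 14.59 on the other SCC arrays, and the defining squamous genes Krt5, Krt14 and Trp63 were higher in all 5 tumours than in any lung. On the log2 scale Krt5 rose by 11.35, Krt14 by 10.40 and Trp63 by 7.44. Of the 9 markers 3 were not well above background on any WT array, and another was so on only 1 of 5. These met the filter through SCC alone, the group where they were higher, so that they add no independent support for a rise. All 12 endothelial markers fell, 11 of them by at least 2-fold, with a median of -1.77. Their mean level was 13.70 to 13.89 in WT and 11.45 to 12.40 in SCC, highest in SCC replicate 2 and lowest in SCC replicate 3, and none was at background in either group. Of the smooth muscle and pericyte markers 7 of 10 fell and 1, Rgs5, rose. By counts, 5 of 7 T cell, 4 of 4 B cell, 5 of 6 alveolar type 1, 4 of 7 alveolar type 2, 4 of 8 ciliated, 5 of 6 club and 2 of 5 neuroendocrine markers fell. In the opposite direction, 5 of 7 neutrophil and 7 of 8 proliferation markers rose, while 2 of 6 macrophage markers rose and 2 fell, and 1 alveolar type 1 marker rose. The part of these marker lists in the Notch results was not tested.

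All 10 members were well above background on every array with a value. In SCC, 7 of the 10 fell (limma, adjusted p below 0.05 over all tested probes) and none rose. Over the 15586 genes tested by the same probe rule, 28.4% fell and 25.5% rose. By at least 2-fold, 5 members fell, namely Notch4, Lfng, Dll1, Dll4 and Hey1, against 13.4% of all genes, and none rose by that much, against 11.6%. In the same 7 members every SCC value lay below every WT value, which held for 22.5% of all genes, and no member had all SCC values above all WT values, against 18.9%. The median difference over the members, SCC minus WT, was -0.86 on the log2 scale, and it was -0.04 over all genes tested. In whole-tissue RNA, fewer cells of a type and less RNA per cell cannot be told apart. Jag1, Jag2 and Hes1 had higher means in SCC but did not pass.

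**Figure D1:**
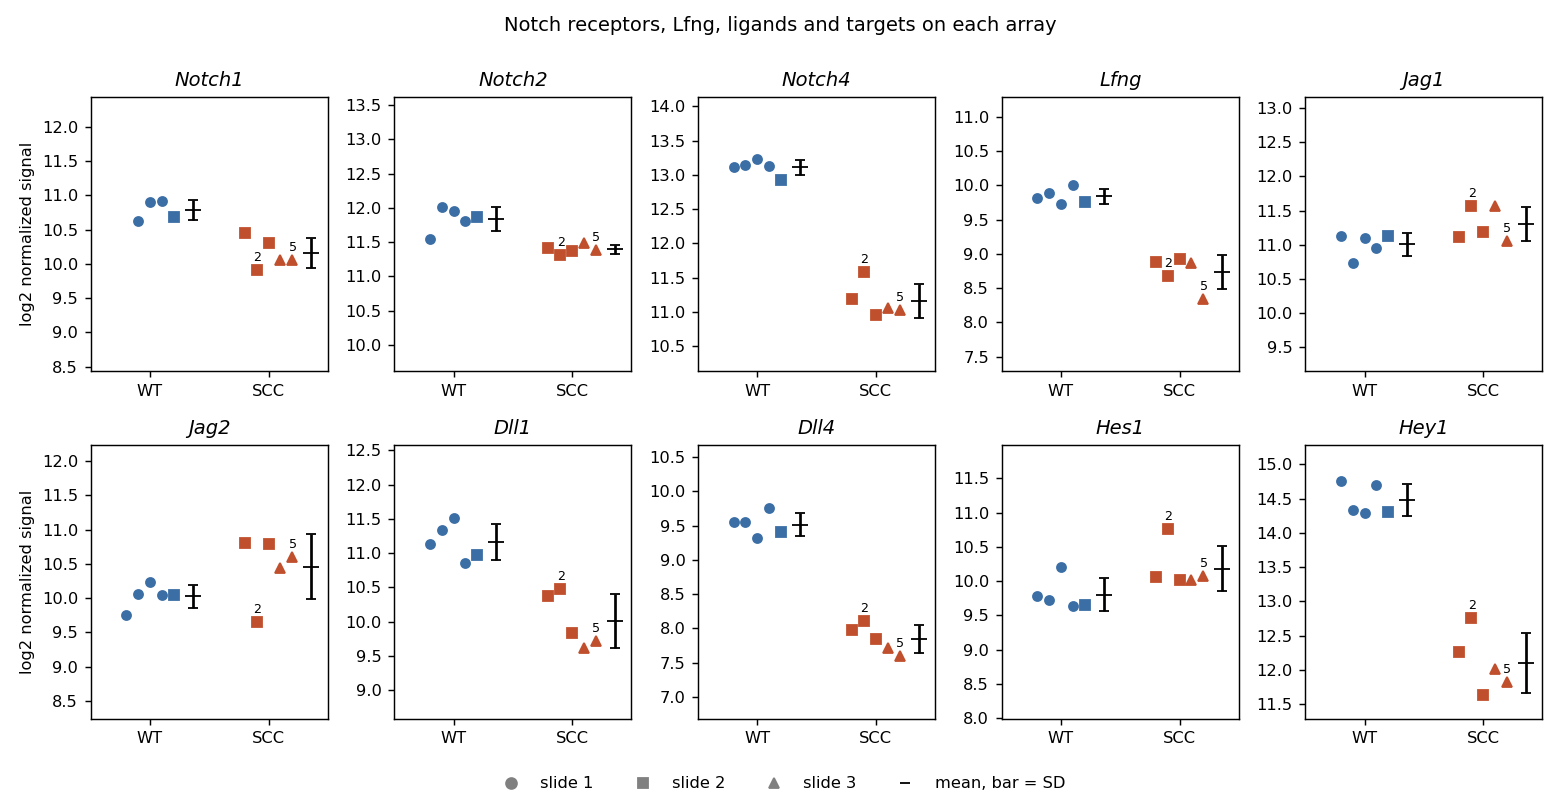
Log2 normalized signal (y axis) of the 10 Notch pathway genes on each array, with the 5 WT lungs in blue and the 5 SCCs in red, the marker shape giving the slide, and the bar the mean ± SD of the group; SCC replicates 2 and 5 carry their numbers, and Notch1 has no value in WT replicate 1. Notch4, Dll4 and Hey1 lie 1.67 to 2.38 log2 units lower in SCC with a wide gap between the groups, while the groups overlap for Jag1, Jag2 and Hes1.

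Of the receptors, Notch4 differed most. Notch4 is a receptor found mainly on endothelial cells. Its log2 normalized signal was 13.11, 13.15, 13.23, 13.13 and 12.92 in WT replicates 1 to 5, and 11.19, 11.58, 10.96, 11.05 and 11.03 in SCC replicates 1 to 5. The highest tumour lay 1.34 log2 units below the lowest lung, and SCC replicate 2 was the highest of the tumours. The level fell from 13.11 ± 0.12 (SD, n = 5) to 11.16 ± 0.25 (SD, n = 5), a difference of -1.94 (SE 0.13) or 3.84-fold, with a limma adjusted p of 5.46e-06. It kept this call without SCC replicates 2 and 5 (-2.04) and within slide 2, the only slide that held both groups (-1.67, limma with slide as a block, adjusted p = 0.00741).

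Notch1, the receptor with roles in epithelial, vascular and lymphoid cells, changed less. Its signal was 10.63, 10.90, 10.91 and 10.68 in WT replicates 2 to 5, and the spot of WT replicate 1 was flagged as an outlier and gave no value. The SCC values were 10.45, 9.91, 10.30, 10.06 and 10.06, and the highest of them, SCC replicate 1, lay 0.18 log2 units under the lowest WT value. Notch1 fell by 0.63 (SE 0.13, limma adjusted p = 0.00478), which is 1.54-fold, from 10.78 ± 0.15 (SD, n = 4) to 10.16 ± 0.22 (SD, n = 5). The smallest p that an exact permutation test of 4 against 5 arrays allows is 0.0159, and Notch1 reached it. Within slide 2 the difference was -0.46 and did not pass (adjusted p = 0.256, limma with slide as a block), with a single WT array on that slide.

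Notch2, a receptor used by airway secretory cells and by B cells among others, showed a small difference. Its values were 11.55, 12.01, 11.95, 11.81 and 11.87 in WT and 11.41, 11.31, 11.37, 11.49 and 11.38 in SCC. The tumours lay close together, at 11.39 ± 0.066 (SD, n = 5), and the lowest lung, WT replicate 1, lay 0.06 log2 units over the highest tumour. Notch2 fell by 0.45 (SE 0.10, limma adjusted p = 0.00505), or 1.36-fold. The fall was seen with the brightest of its 3 probes. A second probe differed by 0.22 (95% interval -0.24 to 0.67, limma adjusted p = 0.400) and the third by -0.09 (-0.80 to 0.61, adjusted p = 0.826), and neither passed. With the mean of the 3 probes the difference was -0.11 and Notch2 no longer passed (adjusted p = 0.624), nor did it within slide 2 (-0.50, adjusted p = 0.143).

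Notch3, the receptor of vascular smooth muscle and pericytes, is outside the 10 members and complements the receptor family. It ranged from 12.82 to 13.06 in WT and from 12.12 to 12.40 in SCC, with no overlap, and fell by 0.60 (SE 0.088, limma adjusted p = 0.000414). Within slide 2 the difference of Notch3 was -0.56 and did not pass (adjusted p = 0.0735, limma with slide as a block). By the brightest probe all 4 receptors fell, Notch2 only by that probe of its 3. Of the smooth muscle markers fixed first in their list, Myh11 fell by 1.18 and Tagln fell by 0.87, whereas Acta2 differed by 0.40 and did not pass (limma adjusted p = 0.0629). Over the whole list 7 of 10 markers fell, 2 did not pass and 1 rose, namely Rgs5 by 2.33 (limma adjusted p = 0.000273), so that the list did not move in 1 direction. The mean level of that list was 11.76 to 12.11 in WT and 11.26 to 11.68 in SCC, and its part in the Notch3 result was not tested.

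Lfng, the fringe enzyme that modifies Notch receptors in the Golgi, also fell. The WT values were 9.81, 9.89, 9.73, 10.01 and 9.76, and the SCC values were 8.88, 8.67, 8.93, 8.86 and 8.34. The lowest lung lay 0.80 log2 units over the highest tumour, and SCC replicate 5 was the lowest of the tumours. Lfng fell by 1.10 (SE 0.13, 2.15-fold, limma adjusted p = 9.47e-05), and without SCC replicates 2 and 5 it fell by 0.95, just under 2-fold. Its dimmer probe fell by 1.18 (SE 0.39, adjusted p = 0.0311), with SCC replicate 5 at 4.10 and no other tumour over 6.42.

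Promoter sequence is shown for Lfng and for the genes Hes5 and Hey2, which hold the RBPJ core, and for Dll4 and Notch4, the ligand and the receptor among the members that differed most. Of the 10 members 8 were in RefSeq's table of mouse gene starts (GRCm38.p6), with 9 starts; Hes1 and Hey1 were not matched. Each line gives the 250 bases before the gene's start, 5′ to 3′ on the gene's strand, and capitals mark the core TGGGAA of the RBPJ binding site or its reverse complement TTCCCA. The regions are chr5:140607091-140607340 (plus strand) for Lfng, chr4:154960673-154960922 (plus strand) for Hes5, chr10:30842784-30843033 (minus strand) for Hey2, chr2:119325534-119325783 (plus strand) for Dll4 and chr17:34564045-34564294 (plus strand) for Notch4.
Lfng: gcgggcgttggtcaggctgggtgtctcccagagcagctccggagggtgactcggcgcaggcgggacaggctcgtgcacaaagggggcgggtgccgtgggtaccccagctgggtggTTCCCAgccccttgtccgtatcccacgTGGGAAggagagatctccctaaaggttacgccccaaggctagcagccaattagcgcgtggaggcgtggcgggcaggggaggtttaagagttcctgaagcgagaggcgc
Hes5: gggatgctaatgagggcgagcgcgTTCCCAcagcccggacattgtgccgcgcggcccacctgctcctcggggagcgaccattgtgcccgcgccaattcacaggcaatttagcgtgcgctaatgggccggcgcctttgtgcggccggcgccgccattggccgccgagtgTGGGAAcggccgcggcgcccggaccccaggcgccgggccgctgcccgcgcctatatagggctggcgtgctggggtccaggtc
Hey2: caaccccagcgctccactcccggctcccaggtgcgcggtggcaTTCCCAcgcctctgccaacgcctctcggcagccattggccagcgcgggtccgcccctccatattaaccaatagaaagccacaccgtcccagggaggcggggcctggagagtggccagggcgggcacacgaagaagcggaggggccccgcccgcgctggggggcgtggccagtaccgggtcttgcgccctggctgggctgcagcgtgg
Dll4: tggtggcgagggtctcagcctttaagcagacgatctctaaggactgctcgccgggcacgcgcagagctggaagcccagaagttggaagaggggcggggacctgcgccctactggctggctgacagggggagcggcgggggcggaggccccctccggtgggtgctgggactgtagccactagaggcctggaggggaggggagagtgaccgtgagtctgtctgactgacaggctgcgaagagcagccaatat
Notch4: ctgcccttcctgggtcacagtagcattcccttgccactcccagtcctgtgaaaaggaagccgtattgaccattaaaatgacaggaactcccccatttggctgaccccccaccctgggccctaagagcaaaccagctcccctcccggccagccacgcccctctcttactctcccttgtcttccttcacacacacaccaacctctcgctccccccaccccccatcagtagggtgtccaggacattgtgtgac
Lfng was the only member start with the core, 1 of 9, and 21.6% of all 32851 promoters of that length hold it on either strand. In Lfng the first bases of the cores lie 135 bases (reverse) and 108 bases (forward) before the start, and the second overlaps an E-box CACGTG. Hes5 holds cores at 226 bases (reverse) and 82 bases (forward), and Hey2 holds 1 at 207 bases (reverse). Both were chosen for display because they hold it. Of the 6 starts in the table for the other Hes and Hey family genes and Nrarp, 3 hold the core, in Hes5, Hes7 and Hey2. The starts of Hes6 and Nrarp do not. Over all pathway genes outside the members it was at 13 of 65 starts. The class C site CACGCG, a sequence bound by Hes and Hey proteins, was found at 5 of the 9 member starts and in 7.62% of all promoters, counting both strands. All promoters were not matched to the member starts in base composition, and the site was not counted over the other pathway genes. No enrichment is therefore read from it. The E-box CACGTG was at 1 of 9 against 6.02%, and the N-box CACGAG at 1 of 9 against 5.37%. These are matches of letters and not measured binding.

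Among the ligands, both Delta-like genes fell and both Jagged genes did not pass. Dll4, the ligand of sprouting and arterial endothelium, measured 9.55, 9.55, 9.32, 9.76 and 9.40 in WT and 7.98, 8.10, 7.85, 7.72 and 7.59 in SCC. The groups were separated by 1.23 log2 units, with SCC replicate 2 again the highest tumour. Dll4 fell by 1.67 (SE 0.12, 3.18-fold, limma adjusted p = 1.02e-05), by 1.66 without SCC replicates 2 and 5, and by 1.42 within slide 2 (limma with slide as a block, adjusted p = 0.00801). With normexp background correction in place of the processed signal it fell by 1.29.

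Dll1, a ligand that serves in airway, lymphoid and arterial cells, was 11.13, 11.34, 11.52, 10.86 and 10.98 in WT and 10.37, 10.48, 9.83, 9.62 and 9.72 in SCC. SCC replicates 1 and 2 were nearer to the lungs than the other 3 tumours, and the groups were separated by 0.38. Dll1 fell by 1.16 (SE 0.20, 2.24-fold, limma adjusted p = 0.00122), with an SD of 0.27 in WT and 0.40 in SCC (n = 5 each). Within slide 2, which held SCC replicates 1 to 3 and WT replicate 5, Dll1 differed by -0.75 and did not pass (adjusted p = 0.160).

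Jag2, a ligand expressed in basal and other stratified epithelial cells, split the tumours. Its values were 9.76, 10.06, 10.23, 10.04 and 10.04 in WT, and 10.81, 9.65, 10.79, 10.44 and 10.60 in SCC. SCC replicates 1, 3, 4 and 5 lay above every lung, and SCC replicate 2 lay below every lung. The difference of 0.43 (95% interval -0.05 to 0.91) did not pass (limma adjusted p = 0.124; exact two-sided permutation p = 0.111). Without SCC replicate 2 it was 0.63 and passed (limma adjusted p = 0.00156), and without SCC replicates 2 and 5 it was 0.65 (adjusted p = 0.00220). SCC replicate 2 was also the tumour with the lowest mean level of the squamous and basal (10.88), neutrophil (10.07), macrophage (11.80), proliferation (9.42) and T cell (8.21) markers, and the part of these levels in the Jag2 value was not tested.

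Jag1, a ligand of airway epithelium and of the vessel wall, measured 11.13, 10.74, 11.10, 10.95 and 11.13 in WT and 11.11, 11.57, 11.19, 11.57 and 11.06 in SCC. The groups overlapped, with SCC replicates 2 and 4 above the rest. The difference of 0.29 (95% interval -0.02 to 0.60) did not pass (limma adjusted p = 0.106). A second, dim probe of Jag1 was well above background on 2 of 5 WT arrays and on all 5 SCC arrays, and there the groups did not overlap. That probe ranged from 3.74 to 4.58 in WT and was 4.62, 5.32, 4.72, 4.81 and 7.79 in SCC, a difference of 1.22 that did not pass (adjusted p = 0.0954). The value of SCC replicate 5, 7.79, was the farthest from the rest. The dim probe met the filter through SCC alone, the group where it was higher, so the mean of both probes, with a difference of 0.75, was not read as a test of Jag1.

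Of the 2 target genes Hey1 fell and Hes1 did not pass. Hey1, a repressor that is a direct target of Notch in endothelial cells, had the largest difference of the 10 members. Its signal was 14.76, 14.34, 14.29, 14.70 and 14.30 in WT and 12.26, 12.76, 11.63, 12.02 and 11.83 in SCC. The groups were separated by 1.53 log2 units, and SCC replicate 3 was the lowest of the tumours. Hey1 fell by 2.38 (SE 0.21, 5.20-fold, limma adjusted p = 2.41e-05), from 14.48 ± 0.23 to 12.10 ± 0.44 (SD, n = 5 each), and by 2.09 within slide 2 (limma with slide as a block, adjusted p = 0.0178).

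Hes1, a repressor that Notch activates in many cell types, was 9.79, 9.73, 10.21, 9.63 and 9.65 in WT and 10.06, 10.76, 10.02, 10.01 and 10.07 in SCC. WT replicate 3 lay above 4 of the 5 tumours, and the other 4 lungs lay below all of them. The difference of 0.38 (95% interval -0.01 to 0.77) did not pass (limma adjusted p = 0.0953), while the exact two-sided permutation test of this single value gave p = 0.0397. Without WT replicate 3 it was 0.49 and passed (limma adjusted p = 0.0456), and without SCC replicates 2 and 5 it was 0.23 (adjusted p = 0.167). Its value in SCC replicate 2, 10.76, was the highest of the 10 arrays.

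**Figure D2:**
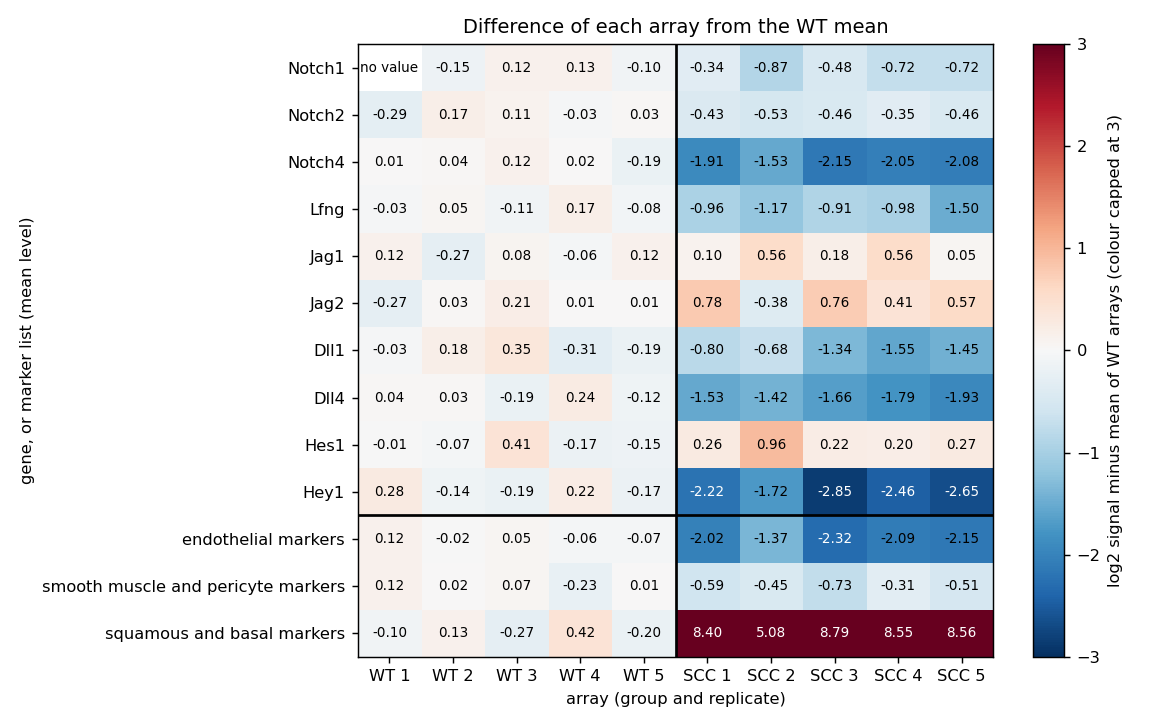
Difference of each array from the WT mean, in log2 units, for the 10 Notch pathway genes and for the mean level of the endothelial, smooth muscle and pericyte, and squamous and basal marker lists (rows), with the 5 WT arrays left and the 5 SCC arrays right of the line; colour is capped at 3. In the SCC columns Notch4, Dll4, Hey1 and the endothelial markers are all lower by 1.37 to 2.85, SCC replicate 2 shows the smallest of these differences, and Jag2 is below the WT mean in SCC replicate 2 only.

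The members typical of endothelium were compared with the endothelial marker level tumour by tumour. SCC replicate 2, with the highest endothelial level (-1.37 from the WT mean), had the smallest differences of Notch4 (-1.53), Dll4 (-1.42) and Hey1 (-1.72). SCC replicate 3, with the lowest endothelial level (-2.32), had the largest difference of Notch4 (-2.15) and of Hey1 (-2.85), but not of Dll4, whose largest was -1.93 in SCC replicate 5. Of the 7 members that fell, 4 had their highest SCC value in SCC replicate 2, and 2, Notch1 (9.91) and Notch2 (11.31), had their lowest there. The endothelial list was 1 of 5 of the 13 marker lists with their highest tumour level in SCC replicate 2, beside the club (17.50), alveolar type 1 (13.98), alveolar type 2 (15.03) and B cell (8.35) lists. It was also 1 of 5 with their lowest in SCC replicate 3, beside the smooth muscle and pericyte (11.26), ciliated (9.07), club (15.39) and neuroendocrine lists, so these extremes are not particular to the endothelial list. Pecam1, Cdh5 and Tie1, which encode an endothelial adhesion molecule, the cadherin of endothelial junctions and an endothelial receptor kinase, fell by 1.60, 2.37 and 1.77. The part of any of these levels in the Notch values was not tested, and with 5 arrays a group no correlation was computed.

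The genes whose pattern over the 10 arrays lay nearest to each member that fell by at least 2-fold were found by the root mean square difference after each gene's own mean was subtracted. For Notch4 they were Sh3bp5 (0.070 log2 units) and Ctla2b (0.083), and for Lfng Susd3 (0.095) and Rhob (0.11). For Dll4 they were Arhgap29 (0.11) and Zfp287 (0.12), for Hey1 Myct1 (0.13) and Ppp1r16b (0.14), and for Dll1 Acyp2 (0.15) and Fgfr3 (0.15). All 10 of these genes were lower in SCC, which the measure itself selects.

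The rest of the pathway was examined in a list of 59 other genes, of which 54 had a probe and 49 were tested. Of the 49, 20 fell, 9 rose and 20 did not pass, beside 28.4% and 25.5% of all genes. By at least 2-fold 12 fell and 3 rose, beside 13.4% and 11.6% of all genes, and the median difference was -0.27, beside -0.04. Dlk1, Dner and Hey2 entered the test through 1 group only, since fewer than 4 arrays of the other group were well above background, and among the remaining 46 genes 18 fell, 10 of them by at least 2-fold, and 8 rose, 2 of them by at least 2-fold. The role groups are small, so that their counts are given as a description beside the shares of all genes, 28.4% lower and 25.5% higher.

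Of the 7 non-canonical ligands, proteins that bind Notch without the domain shared by Jagged and Delta-like ligands, 4 fell and 2 rose. Egfl7, a factor secreted by endothelial cells, ranged from 15.98 to 16.30 in WT and from 13.43 to 14.64 in SCC and fell by 2.28 (limma adjusted p = 2.91e-05). Mfap2, a microfibril protein, fell by 2.17, and Cntn1, a neural adhesion protein, fell by 3.58 with tumours spread from 5.36 to 8.97. Its difference was -2.44 with normexp background correction and -3.25 with slide as a block, where it did not pass (adjusted p = 0.0784). Dner, counted among those that fell, was measured in WT but well above background on only 2 of 5 SCC arrays, and its fitted difference of -1.90 lost its call under 12 of 21 other settings. Dlk2, a relative of Delta-like ligands, rose from 7.70 to 8.58 in WT to 9.87 to 10.55 in SCC, by 2.10 (limma adjusted p = 6.20e-05). Its paralog Dlk1, the other gene counted as higher, had a fitted difference of 2.03 but was well above background on only 2 of 5 WT arrays, so that its size is uncertain, with WT replicate 4 at 5.26 inside the SCC range of 5.23 to 6.23.

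The enzymes that act on Notch before the nucleus went in different directions. Of the 5 other fringe and O-glycosylation genes Mfng, the fringe paralog of Lfng, fell by 1.79 (SE 0.12, limma adjusted p = 7.20e-06), with 11.84 to 12.28 in WT and 10.08 to 10.59 in SCC. Eogt fell by 0.68, kept in 17 of 22 other settings, and the other three did not pass. Of the 10 tested ubiquitin ligases and endocytic adaptors 4 fell and 2 rose. Numb, an adaptor that inhibits Notch, fell by 1.08, and the Deltex ligases Dtx1 and Dtx4 moved oppositely, Dtx1 by -1.90 and Dtx4 by 1.52 (limma adjusted p = 5.94e-06). Mib1, a ligase that activates ligands, rose by 0.44 and kept its call in 13 of 22 other settings, its paralog Mib2 fell by 0.44, and Fbxw7, a ligase for the cleaved receptor, fell by 0.39. Of the 8 tested proteases and gamma-secretase subunits 3 rose, each by less than 2-fold, and none fell, beside 25.5% and 28.4% of all genes. These were Adam17, which can cleave Notch receptors, at 0.78, Furin, which cuts their precursor, at 0.35, and the gamma-secretase subunit Psenen at 0.30, and Furin passed in 16 of 22 other settings. With slide as a block Dtx1, Mib1, Mib2, Fbxw7, Adam17, Furin and Psenen no longer passed.

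In the nucleus, 5 of 12 tested factors fell and none rose, beside 28.4% and 25.5% of all genes. The co-repressors Tle4 and Tle1 fell by 1.44 and 1.32. Snw1 fell by 0.38 and no longer passed with slide as a block. The DNA-binding factor Rbpj itself fell by 0.31 (SE 0.11, limma adjusted p = 0.0406) and Kat2b fell by 0.49, and each of these lost its call under 13 of 22 other settings. Of the 6 other genes tested from the Hes and Hey families with Nrarp, 4 fell and 2 rose. They were listed by name, and whether each responds to Notch in this tissue was not tested. Hes2 ranged from 9.23 to 9.65 in WT and from 6.56 to 7.32 in SCC and fell by 2.45 (SE 0.14, 5.47-fold, adjusted p = 2.98e-06). With the mean of its probes the difference of Hes2 was -1.30. Hey2, the cardiac and vascular relative of Hey1 whose promoter is shown above, had a fitted difference of -1.99 but was well above background on only 3 of 5 SCC arrays, so that its size is uncertain. Hes5, also shown there, fell by 1.02 (adjusted p = 0.0304) but by 0.55 with 75th percentile scaling, where it did not pass (adjusted p = 0.143). It kept its call in 17 of 22 other settings, over which its difference ranged from -1.19 to -0.29. Heyl fell by 0.38 and kept its call in 15 of 22 other settings. Nrarp, a target that dampens Notch signalling, rose by 0.61, and Hes6, a relative that counteracts Hes1, rose by 0.59, and they kept their call in 13 and 11 of 22 other settings. Dner, Eogt, Mib1, Mib2, Fbxw7, Adam17, Furin, Psenen, Snw1, Kat2b, Heyl, Nrarp, Hes6 and the marker Rgs5 were named after their values were seen.

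**Figure D3:**
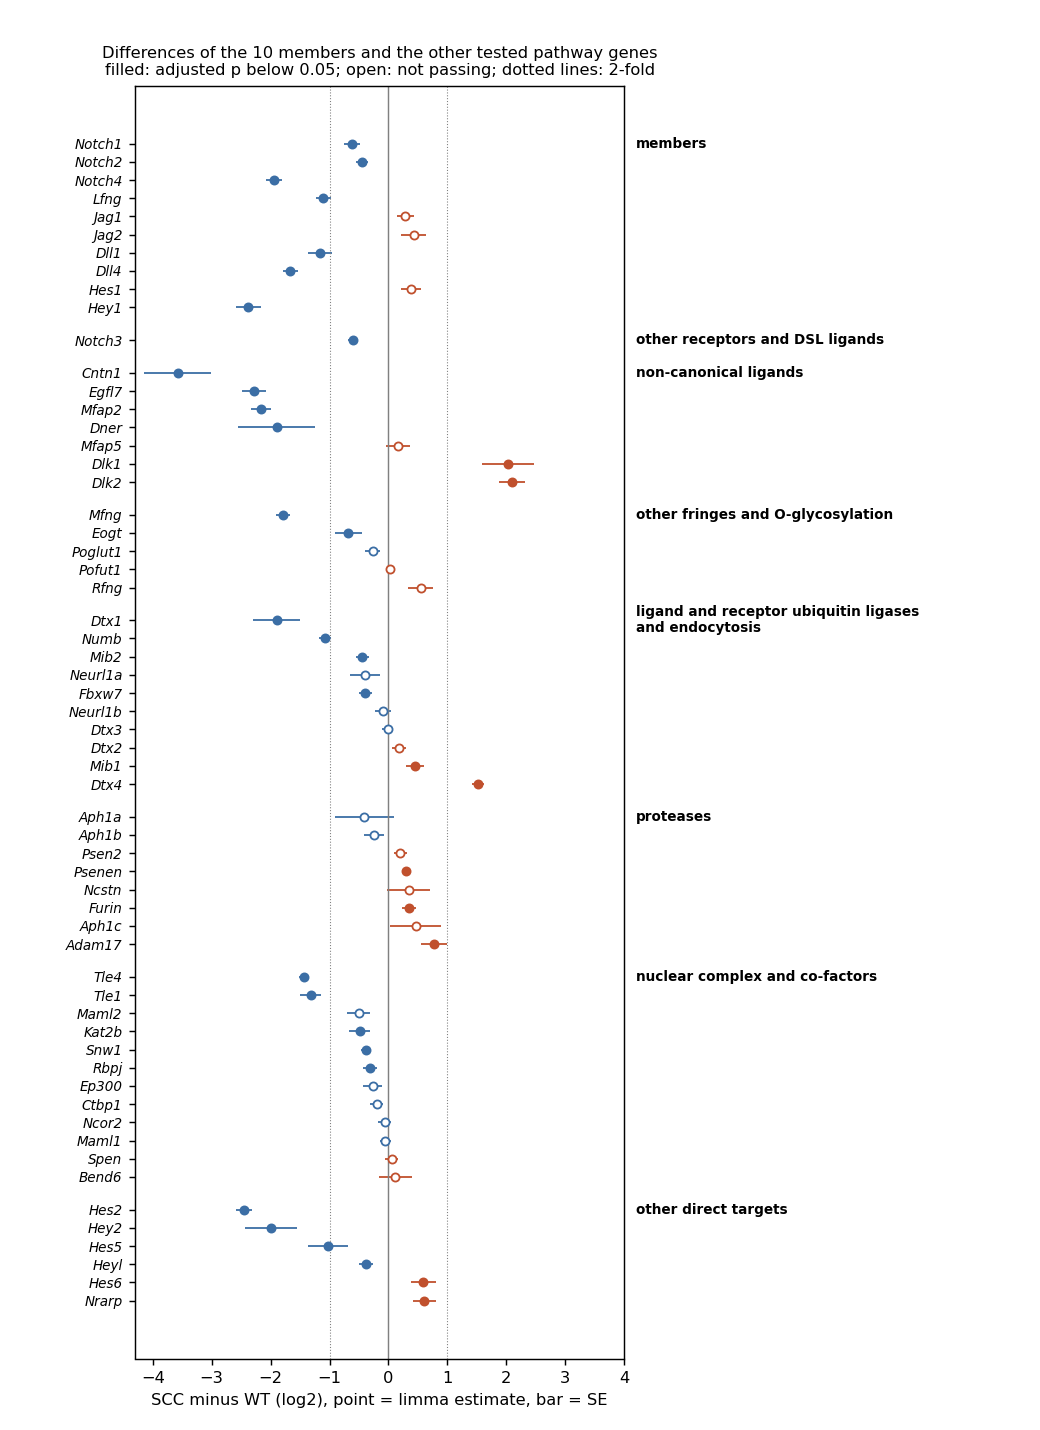
Difference SCC minus WT in log2 units (x axis), with SE bars, for the 10 members and the 49 other tested genes of the pathway, grouped by role; filled points have a limma adjusted p below 0.05, open points do not, and dotted lines mark 2-fold. Of the members, filled points lie only on the lower side, from -0.45 for Notch2 to -2.38 for Hey1, and outside the members 20 filled points are lower and 9 are higher.

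The differences were also set side by side under 22 other settings. Notch4, Dll4, Hey1 and Lfng passed under all 22, with ranges of -2.05 to -1.67, -1.73 to -1.29, -2.54 to -2.09 and -1.15 to -0.87. Dll1 passed under 21 of 22, Notch1 under 20 of 21 and Notch2 under 20 of 22. Jag2 did not pass under 19, and Jag1 and Hes1 did not pass under 21 of 22. No member changed its direction under any of them. Without SCC replicates 2 and 5, the arrays that stood apart, the differences were -0.51 for Notch1, -0.41 for Notch2, -2.04 for Notch4, -0.95 for Lfng, -1.23 for Dll1, -1.66 for Dll4 and -2.51 for Hey1, and all 7 passed.

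**Figure D4:**
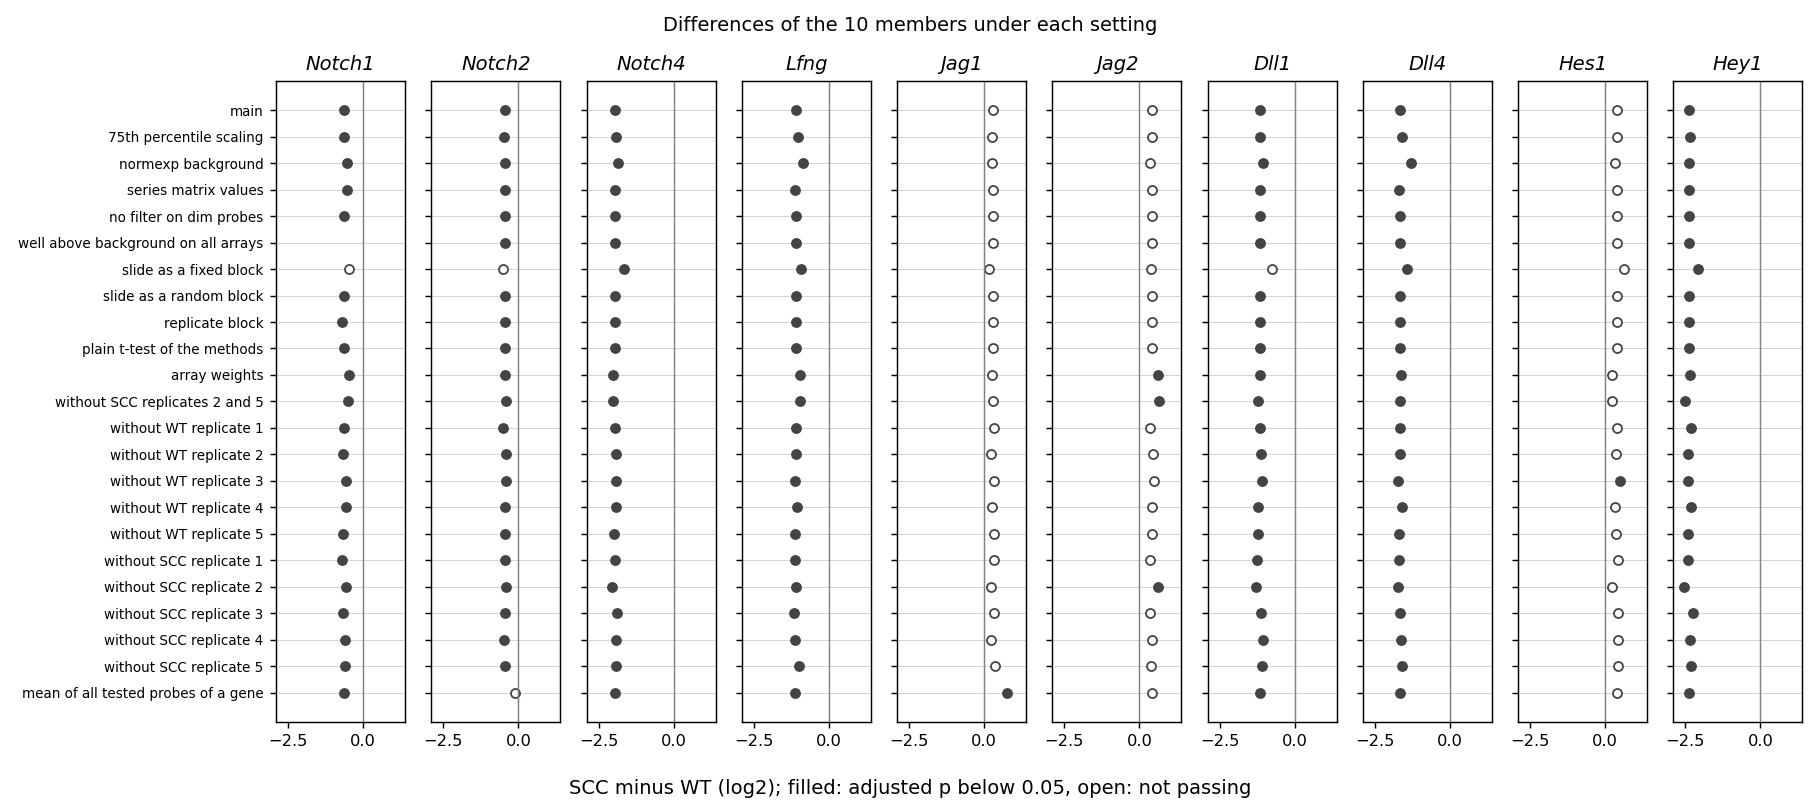
Difference SCC minus WT in log2 units (x axis) of the 10 Notch pathway genes (columns) in the main analysis and under 22 other settings (rows); filled points have an adjusted p below 0.05 and open points do not. Notch4, Lfng, Dll4 and Hey1 are filled and lower in every row, and with slide as a fixed block Notch1, Notch2 and Dll1 are open.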

How the data were processed

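RNA of 5 WT lungs and 5 SCCs had been hybridised to Agilent whole-mouse-genome arrays, which were read with Agilent Feature Extraction (version 12). The deposited scanner files hold a processed intensity per spot on a linear scale, background-subtracted by the authors' scanner software, with raw intensities and outlier, saturation and well-above-background flags; annotation build mm9 is given per the file headers. The authors also deposited log2 values after quantile normalization, which correlated with the processed intensity after the same steps at r of at least 0.9999 on every array and served as an alternative. Groups came from the sample titles.

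Outlier-flagged and control spots were left out, spots of a probe were averaged, and log2 intensities were quantile-normalized. Of 41174 probes, 30374 that were well above background on at least 4 of 5 arrays of a group were tested with limma 3.58.1 in R 4.3.3 (SCC against WT, all 10 arrays, no covariates, two-sided), in place of the analysis of variance the methods name, with Benjamini-Hochberg adjustment over all tested probes. A gene rose or fell at an adjusted p below 0.05, and a 2-fold difference was the stricter call. Single values were compared by exact permutation, whose smallest p is 0.00794 for 5 against 5. Accessions were paired with symbols through RefSeq's gene table (GRCm38.p6), which named 68.5% of probes. No probe of the deleted gene, Stk11 (Lkb1), was paired through it, so that the deletion was not checked here. The fit was tested on simulated arrays, 5 against 5, drawn as independent normal values with the same SD in both groups. Differences of 2 log2 units up or down were planted, and no slide effect or deviating array was included. Of 200 changed probes among 30267, 86% were recovered, with 8 false calls. Recovery of smaller differences, or with slide and group confounded, was not tested.

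The members, the pathway and marker lists and the tests were chosen with earlier results of these data known. Named are all members, Notch3, Dll3 and Rbpj, in each role group at most the 3 highest and 3 lowest genes past both thresholds, the first 3 genes of the endothelial, smooth muscle and squamous lists (other lists are given by counts), and the 2 genes nearest in pattern to each member that fell by at least 2-fold.

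Of 3 slides, the first held WT replicates 1 to 4 alone and the last SCC replicates 4 and 5 alone, while slide 2 carried the remaining 4 arrays. A fit with slide as a block therefore compares SCC replicates 1 to 3 with 1 WT array. The within-slide correlation was -0.017. Alternatives covered scaling, background correction, the dim-probe filter, slide, replicate number, the methods' t-test, array weights, the probe per gene, and each replicate in turn. Array number limits the precision.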

Additional observations from a re-analysis of the deposited data

Results flagged for a closer look

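In groups of 5 arrays, a value was looked at again where the gap to its nearest neighbour, divided by the range of the group, was above 0.71 (Dixon's 95% critical value). Of 126 groups examined 20 had such a gap, 14 of them on SCC replicate 2, and chance gives about 1 in 20 groups.

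Among the members, Hes1 stood out in WT replicate 3 (10.21 against 9.63 to 9.79, gap 0.717) and in SCC replicate 2 (10.76 against 10.01 to 10.07, gap 0.917). Elsewhere in the pathway, SCC replicate 2 was high in Egfl7 (14.64 against 13.43 to 13.77, gap 0.721) and in Kat2b (11.32 against 10.33 to 10.54, gap 0.793). It was low in Adam17 (10.93 against 11.97 to 12.08, gap 0.902) and in Snw1 (12.55 against 12.60 to 12.61, gap 0.788). Notch3 was low in SCC replicate 4 (12.12 against 12.34 to 12.40, gap 0.798), and Cntn1 was low in WT replicate 1 (9.81 against 10.31 to 10.43, gap 0.807).

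Of the markers, SCC replicate 2 was high in Pecam1 (10.22 against 9.63 to 9.69, gap 0.898) and Tie1 (11.02 against 10.21 to 10.32, gap 0.863). It was low in Krt5 (15.60 against 17.45 to 17.70, gap 0.879) and Krt14 (14.34 against 17.09 to 17.42, gap 0.894), and Krt14 was high in WT replicate 4 (6.80 against 6.09 to 6.29, gap 0.729). The mean level of the squamous and basal list in SCC replicate 2 was 10.88 against 14.20 to 14.59 (gap 0.895), of the neutrophil list 10.07 against 12.42 to 12.62 (gap 0.922), of the macrophage list 11.80 against 12.89 to 13.00 (gap 0.908) and of the proliferation list 9.42 against 10.47 to 10.85 (gap 0.734). The alveolar type 2 list was high in SCC replicate 2 (15.03 against 14.60 to 14.71, gap 0.744) and low in WT replicate 5 (15.09 against 15.20 to 15.21, gap 0.917). SCC replicate 5 had 90.2% of probes well above background against 71.1% to 73.8% on the other SCC arrays (gap 0.859).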

How the results depend on the processing

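No member reversed. The count of members that fell, 7, was 4 with slide as a fixed block, and the count of those that fell by at least 2-fold, 5, was 3 there. The first count was 6 when only probes well above background on all arrays were tested and with the mean of all probes of a gene. The second was 4 with normexp background correction, with array weights and without SCC replicates 2 and 5. The count of members that rose, 0, was 1 with array weights, without SCC replicates 2 and 5 and without SCC replicate 2 (Jag2 each time), without WT replicate 3 (Hes1) and with the mean of all probes of a gene (Jag1, by averaging in a dim probe that met the filter through SCC alone, which is no test of the gene). Leaving out each replicate in turn, members that fell stayed at 7, members that fell by at least 2-fold at 5, and members that rose ran from 0 to 1. In the pathway list the 9 genes that rose became 2 with slide as a fixed block, 5 with the replicate block, 15 with array weights and 14 without SCC replicates 2 and 5, and 5 to 11 leaving out each replicate (5 without SCC replicate 1). The 20 that fell became 8 with slide as a fixed block and 15 to 22 leaving out each replicate. Over all probes, 6954 were called. The number was 3969 with normexp background correction, 2989 with slide as a fixed block, 14878 with the adjusted p alone, and 6385 to 8135 leaving out each replicate. The cause of these changes was not tested.

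Replicate numbers do not pair the samples: deviations of same-numbered arrays correlated at -0.10 to 0.01. With the replicate block 7 members fell, 5 of them by at least 2-fold, and no member changed its call. Scaling to the 75th percentile moved the median of all tested probes from -0.09 to 0.03 and the share of calls that were higher from 43.3% to 53.2%, and the same 7 and 5 members were counted. Acta2, at 0.40 with its brightest probe, was -0.082 with the mean of its probes. With the mean of its probes Notch2 did not pass, where only its brightest probe did. With slide as a fixed block 22 of the 49 named genes tested no longer passed: Notch1, Notch2, Dll1, Notch3, Rbpj, Cntn1, Dlk1, Dner, Dtx1, Mib1, Mib2, Fbxw7, Adam17, Furin, Psenen, Snw1, Kat2b, Hey2, Hes5, Heyl, Nrarp and Hes6. SCC replicate 5 changed no call of a member when left out alone. Low signal limits the dim probes of Jag1 and the genes Dlk1, Dner and Hey2, which were not well above background on every array, and within slide 2 a single WT array limits every comparison.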

Other observations

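Several pathway genes had signals too low to be compared. Dll3, a Delta-like gene, was well above background on 0 of 5 WT and 1 of 5 SCC arrays, with log2 values of 2.33 to 3.20 in WT and 2.40 to 5.18 in SCC. The Hes family genes Hes3 and Hes7 reached that level on 2 and 1 WT arrays and on 1 SCC array each. Itch, a ubiquitin ligase, did so on 0 WT and 2 SCC arrays, and Maml3, a Mastermind co-activator, on 1 WT and 2 SCC arrays. Adam10, Hdac1, Dtx3l and Numbl were not analysed here, since no probe was paired with them.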
